A study of Rattus norvegicus with 2 samples.

Results

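The genes of water transport and of the astrocyte endfoot that were followed in single cells of the rat optic nerve were the water channels Aqp4 (ENSRNOG00000016043) and Aqp1 (ENSRNOG00000011648), the membrane proteins Mlc1 (ENSRNOG00000032871) and Hepacam (ENSRNOG00000009219), the potassium channel Kcnj10 (ENSRNOG00000007705) and dystroglycan, Dag1 (ENSRNOG00000019400). These 6 of the 25399 genes in the files were chosen by name. The cells came from 1 library of wild type (WT) rats and 1 library of Nuc1 rats, both given an age of postnatal day 7 in the labels. Per the study, WT animals were Sprague Dawley and the cells were mixed primary cultures of glia from the nerve. Nuc1 is a spontaneous line with an insertion in Cryba1, the gene of a lens crystallin that astrocytes also use. The methods give pups of 2 days for astrocyte cultures in a separate section, and no starting age for the sequenced cultures. How many animals were pooled is not given in the sources used here. With 1 library per genotype there is no replicate check and no test was made, so every difference between WT and Nuc1 is a difference between these 2 libraries, and each interval is an exact 95% interval that covers counting error only.

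Aqp4 is the main water channel of the brain and is concentrated in the endfeet that astrocytes place on blood vessels and on the pial surface. There it is held by the dystrophin complex, in which dystroglycan crosses the membrane and binds laminins and agrin of the basement membrane. Mlc1 and Hepacam (GlialCAM) bind each other at contacts between endfeet, and Kcnj10 is the inwardly rectifying channel by which glia take up potassium. Aqp1 belongs to the same family as Aqp4 and is best known in red cells, in the choroid plexus and in peripheral endothelia, and it is also found in connective tissue cells.

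The authors deposited raw counts of UMIs, the molecular barcodes that mark each captured transcript. After cells with fewer than 500 genes, over 20% mitochondrial UMIs or a doublet call were left out, 1963 WT and 1782 Nuc1 cells remained, with median UMI totals of 14050 and 16577.5, and 2 barcodes occurred in both libraries. Cryba1 itself had 0 UMIs in either library, so the genotype labels could not be checked from it. Levels are in CPM, which scales a gene's summed UMIs to 1000000 UMIs of all genes in the same cells. The 6 genes were kept out of the clustering, so that their levels did not shape the 10 clusters. The Y-linked gene Eif2s3y had 3 WT UMIs, in 1 cell, and 901 Nuc1 UMIs, in 376 cells. Animal sex was therefore not separated from genotype in these 2 libraries, and its part in any difference below was not tested.

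Cluster 3 (107 WT and 348 Nuc1 cells) was astrocyte-like, with Gfap at 6912 CPM in WT and 9638 in Nuc1. Of 16 astrocyte markers other than the 6 genes, 15 had at least 3 UMIs in its WT cells and all 16 in its Nuc1 cells, although the glutamate transporter Slc1a2 stood at 5.37 and 11.5 CPM. That count did not set the cluster apart, since cluster 0 had 15 and 14. The summed level of the markers did, at 41433 CPM in WT and 52107 in Nuc1, against 3054 and 2688 in cluster 0. Cluster 6 came next, at 19519 and 23644. The marker Gja1 went the other way, as given below. Clusters 0, 1, 2, 4 and 5 were called collagen-rich because Col1a1 was at or above 2000 CPM in each, a limit set after the clusters were seen. They held 1744 WT and 1265 Nuc1 cells, and Foxc1, a transcription factor of the meninges, ran from 273 to 661 CPM in them. The labels do not name meninges, so these cells are not called meningeal here. Cluster 6 (15 and 106 cells) carried the motile-cilia genes Dynlrb2 and Cfap126 at its head, cluster 9 (24 and 23 cells) was macrophage-like, cluster 8 (22 and 31 cells) stayed unnamed and cluster 7 (51 and 9 cells) is given by its number. The share of the cells differed widely between libraries, at 5.45% of WT and 19.5% of Nuc1 cells for cluster 3 and at 2.75% and 20.7% for cluster 4.

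The stretches before the transcription start of Mlc1 and Aqp1 are shown because these genes marked opposite groups of cells, Mlc1 the astrocyte-like cells and Aqp1 the collagen-rich ones. They are the 250 bases upstream of the start in RefSeq, build GRCr8, 5′ to 3′ on the strand of the gene, and the capitals mark matches on either strand to TATAAA (the TATA box), TTGGC (a site of nuclear factor I, a family used by astrocytes) and GGGCGG (the GC box). The build behind the count files is not given in the sources used here.
Mlc1, chr7:121946699-121946948, minus strand: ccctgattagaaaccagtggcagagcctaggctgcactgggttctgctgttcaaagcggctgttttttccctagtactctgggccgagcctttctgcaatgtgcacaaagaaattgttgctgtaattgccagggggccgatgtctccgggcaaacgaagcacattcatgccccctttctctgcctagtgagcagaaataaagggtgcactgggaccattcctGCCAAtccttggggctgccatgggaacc
Aqp1, chr4:85812534-85812783, plus strand: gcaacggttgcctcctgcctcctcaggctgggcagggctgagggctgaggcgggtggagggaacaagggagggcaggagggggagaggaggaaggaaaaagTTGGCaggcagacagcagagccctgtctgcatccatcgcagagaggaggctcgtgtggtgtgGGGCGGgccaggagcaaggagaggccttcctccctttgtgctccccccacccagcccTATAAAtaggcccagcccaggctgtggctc

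In the Aqp1 stretch TATAAA begins 30 bases before the start and GGGCGG 87 bases before it, while Mlc1 held neither. In Mlc1 TTGGC was read on the strand opposite to the printed one, where it shows as GCCAA, from 28 bases before the start. In Aqp1 it was read on the printed strand from 149 bases before the start. These letters are common: over the 33469 promoters of the table, 12.9% held TATAAA, 40.3% TTGGC and 30.5% GGGCGG in the same 250 bases. Of the other members, Aqp4 had 2 starts in RefSeq with no TATAAA and no TTGGC before either. Hepacam had 2 overlapping stretches that shared 1 and the same TTGGC, and Kcnj10 held 2 TTGGC and 2 GGGCGG. The GC content was 65.2% for Aqp1 and 53.6% for Mlc1, and 44.8% and 51.6% for the 2 stretches of Aqp4, beside a median of 51.2% over all promoters.

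Aqp4 marked the astrocyte-like cells of both libraries. It had 5000 UMIs in WT cells of cluster 3, or 1790 CPM (1740 to 1840), and 14859 UMIs in Nuc1 cells, or 1671 CPM (1644 to 1698). A UMI of Aqp4 was found in 106 of 107 WT and 348 of 348 Nuc1 cells. Cluster 3 held 86.6% of all WT and 87.3% of all Nuc1 UMIs of the gene. The motile-cilia cluster came next, at 1004 CPM in WT (910 to 1104) and 772 in Nuc1 (737 to 809), with Aqp4 in 15 of 15 and 104 of 106 cells. Cluster 8 had 428 and 251 CPM. Over both libraries, the astrocyte-like level was above that of cluster 6 and that of cluster 6 above that of cluster 8 beyond counting error.

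**Figure D1:**
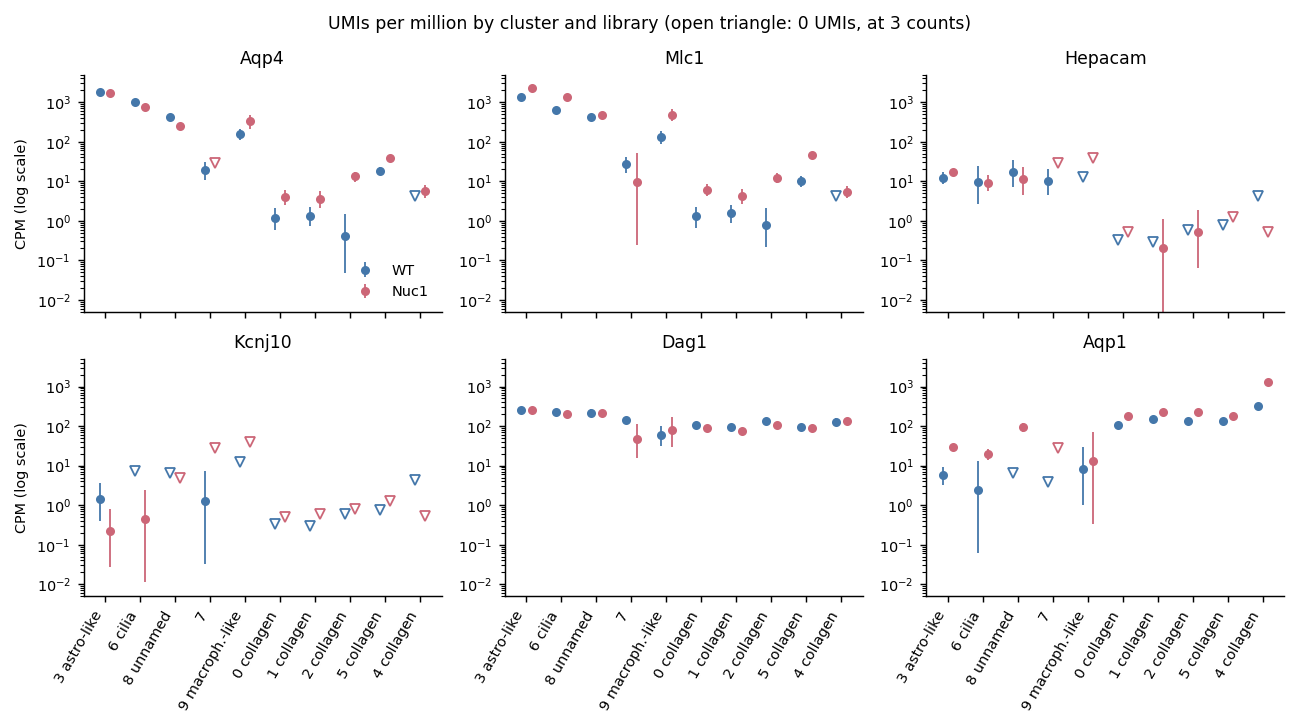
CPM of each of the 6 genes (log axis) in the 10 clusters, with WT in blue and Nuc1 in red, bars for exact 95% Poisson intervals, and open triangles for groups with 0 UMIs, drawn at the level of 3 counts. Aqp4 and Mlc1 fall from over 1000 CPM in the astrocyte-like cluster to between 0 and 44.9 in the collagen-rich clusters, while Aqp1 peaks in cluster 4 at 317 CPM in WT and 1312 in Nuc1.

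In the collagen-rich cells Aqp4 was close to absent. They held 99 UMIs in the WT library, 3.40 CPM (2.76 to 4.13), and 214 in the Nuc1 library, 9.42 CPM (8.20 to 10.8). In WT, 63 of the 99 UMIs lay in 1 cell, and 35 of 1744 cells had any. In Nuc1, 92 of 1265 cells had any, and 5 cells with at least 10 UMIs of Aqp4 or Mlc1 held 116 of the 214. The astrocyte-like level was 527-fold (432 to 650) above the collagen-rich level in WT and 177-fold (155 to 204) above it in Nuc1. The same pattern of 1 rich cell was seen in the macrophage-like cluster, where all 37 WT UMIs and all 25 Nuc1 UMIs of Aqp4 fell in 1 cell of each library. Whether such cells were doublets was not tested. Scrublet had called 5 WT and 11 Nuc1 doublets, which were left out.

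Mlc1 followed Aqp4 from cluster to cluster. Its 3674 UMIs in WT astrocyte-like cells made 1315 CPM (1273 to 1358) and its 20587 UMIs in Nuc1 cells made 2315 CPM (2283 to 2347), and every one of the 455 cells had a UMI. The motile-cilia cluster had 651 CPM in WT and 1390 in Nuc1, and cluster 8 had 411 and 473. Collagen-rich cells had 2.47 and 10.5 CPM, so that the astrocyte-like level was 533-fold (422 to 682) higher in WT and 220-fold (194 to 251) higher in Nuc1.

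Hepacam, the partner of Mlc1, had far fewer UMIs and was also read in clusters 6, 7 and 8. The astrocyte-like cells held 34 UMIs in WT, 12.2 CPM (8.43 to 17.0), and 152 in Nuc1, 17.1 CPM (14.5 to 20.04). Clusters 6, 7 and 8 of the WT library had 9.54, 10.2 and 17.05 CPM, from 4, 8 and 8 UMIs, the 8 of cluster 7 in 8 cells. In Nuc1, clusters 6 and 8 had 9.23 CPM (5.71 to 14.1) and 11.1 CPM (4.47 to 22.9), and cluster 7 had 0 UMIs in 9 cells. Over both libraries, neighbours in the order of clusters 3, 8, 6 and 7 did not differ beyond counting error. Clusters 3 and 6 are not neighbours in that order, and their Nuc1 intervals did not overlap, with cluster 3 the higher. In WT the interval of cluster 6 (2.6 to 24.4) included the level of cluster 3. In collagen-rich cells 0 UMIs were found in WT, where 3 counts would make 0.103 CPM, and 3 UMIs in Nuc1. The WT astrocyte-like level was 118-fold that floor, with an exact lower bound of 91.1-fold on the ratio itself, and in Nuc1 the ratio was 129 (43.4 to 634).

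Kcnj10 was nearly undetected, in glia too. It had 8 UMIs in all kept cells, 4 of them in WT and 2 in Nuc1 astrocyte-like cells, 1 in cluster 6 of Nuc1 and 1 in cluster 7 of WT. The astrocyte-like level was 1.43 CPM (0.390 to 3.67) in WT and 0.225 CPM (0.0272 to 0.812) in Nuc1, and collagen-rich cells had 0 UMIs. These data therefore do not show Kcnj10 at a level that can be compared between groups or genotypes, and it was the only one of the 6 genes under the minimum of 100 UMIs in the astrocyte-like and collagen-rich cells combined. The kit counts the 3′ ends of transcripts, and whether the annotated 3′ end of Kcnj10 was captured was not tested.

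Dag1 was read in every cluster. Its level was 257 CPM (238 to 276) in WT and 251 (241 to 262) in Nuc1 astrocyte-like cells, 226 and 203 in cluster 6, and 217 and 218 in cluster 8. In the collagen-rich cells it was 105.5 CPM (102 to 109) in WT and 100.3 (96.2 to 104.5) in Nuc1. The astrocyte-like level was thus 2.43-fold (2.24 to 2.64) higher in WT and 2.50-fold (2.36 to 2.65) higher in Nuc1. Collagen-rich cells were so many that they still held 74.7% of all Dag1 UMIs of the WT library and 44.5% of those of the Nuc1 library.

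Read against all 10927 genes with at least 100 UMIs in the astrocyte-like and collagen-rich cells, 3 of the 5 members that passed this minimum (Aqp4, Mlc1 and Hepacam) were at least 10-fold higher in the astrocyte-like cells of both libraries, beside 3.44% of all genes, and 1 (Aqp1) was at least 10-fold higher in the collagen-rich cells, beside 2.2%. At 2-fold, 4 were higher in the astrocyte-like cells, beside 11.0%, and 1 in the collagen-rich cells, beside 15.6%. For these counts of genes 0.5 UMIs, scaled to library size, were added to each sum.

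**Figure D2:**
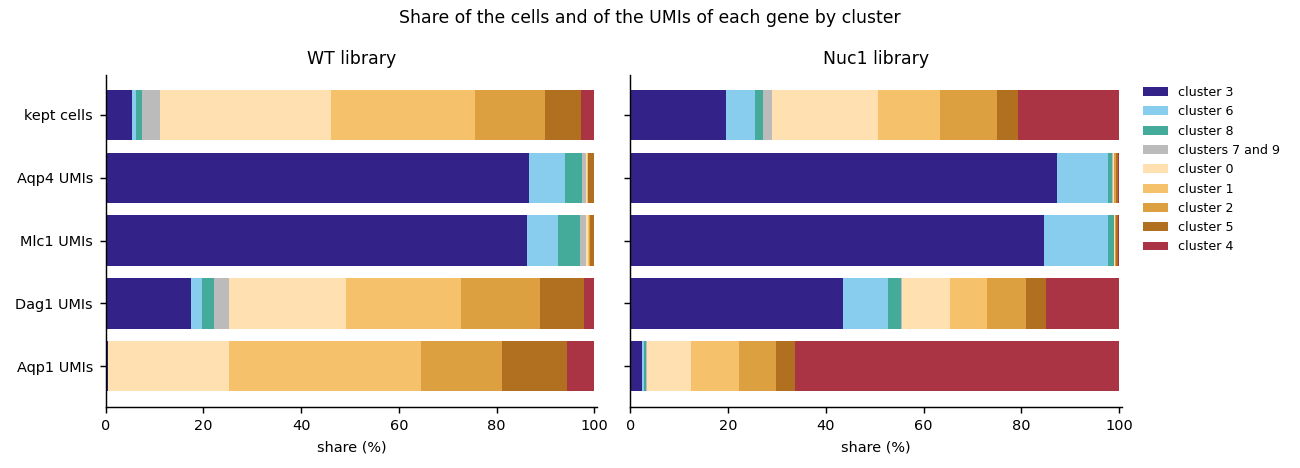
Share in percent of the kept cells and of the UMIs of Aqp4, Mlc1, Dag1 and Aqp1 that each cluster held (colours), for the WT library on the left and the Nuc1 library on the right. Cluster 3 holds 86.6% of WT and 87.3% of Nuc1 Aqp4 UMIs, and cluster 4 holds 5.63% of WT and 66.4% of Nuc1 Aqp1 UMIs.

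Aqp1 had the reverse distribution. The collagen-rich cells held 3974 UMIs in WT, 136 CPM (132 to 141), and 10921 in Nuc1, 481 CPM (472 to 490), or 99.5% and 96.7% of all Aqp1 UMIs. Cluster 4, which was led by the methyltransferase gene Inmt and the retinoic acid hydroxylase gene Cyp26b1, was the highest in both libraries, at 317 CPM (277 to 362) in WT and 1312 (1283 to 1343) in Nuc1. Clusters 0, 1, 2 and 5 had 108, 151, 133 and 137 CPM in WT and 176, 221, 229 and 179 in Nuc1. The level of cluster 4 was 2.41-fold (2.10 to 2.76) that of the other collagen-rich clusters in WT and 6.51-fold (6.26 to 6.79) in Nuc1. Over both libraries clusters 2 and 1 did not differ beyond counting error.

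Astrocyte-like cells had 16 UMIs of Aqp1 in WT, 5.73 CPM (3.27 to 9.30), and 268 in Nuc1, 30.1 CPM (26.6 to 34.0). The collagen-rich level was 23.8-fold (14.6 to 41.7) higher in WT and 16.0-fold (14.1 to 18.1) higher in Nuc1. Most of the astrocyte-like UMIs lay in cells that also carried fibroblast RNA, defined as over 300 CPM of Col1a1, Col3a1, Dcn and Lum together. Such cells were 17 of 107 in WT and 62 of 348 in Nuc1, and they held 68.8% and 91.4% of the Aqp1 UMIs. In the other astrocyte-like cells Aqp1 was 2.21 CPM (0.716 to 5.15) in WT and 3.32 CPM (2.11 to 4.99) in Nuc1. With these cells alone, the log2 ratio of collagen-rich to astrocyte-like cells over both libraries rose from 3.56, or 11.8-fold, to 6.56. Aqp4 in these other astrocyte-like cells was 1815 CPM in WT and 1778 in Nuc1, beside 1790 and 1671 in all astrocyte-like cells.

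Cells of 3 other kinds known for Aqp1 were looked for. Markers of red cells summed to between 0 and 7.9 CPM in all clusters, and Alas2, the erythroid enzyme of heme synthesis, had 0 UMIs in each of them. Of the 6 endothelial markers in the files, cluster 4 had 3 with at least 3 UMIs in WT and 4 in Nuc1, with a summed level of 84.6 and 133 CPM against between 0 and 11.4 in the other clusters. Cdh5, the cadherin of endothelial junctions, made 31.0 and 37.6 CPM of this. The rest, which was the larger part of the sum, lay in markers of the list whose values are not given here. The part of endothelial RNA in the Aqp1 level of cluster 4 was not tested. In cluster 8 of the Nuc1 library, 4 cells with between 3372 and 13661 UMIs of Ttr, the transthyretin gene of the choroid plexus, held 55 of 59 Aqp1 UMIs, 481 CPM, while the other 27 cells held 4. The WT cells of cluster 8 had 0 UMIs of Ttr and 0 of Aqp1. That split was made after the values were seen.

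Between the libraries, Aqp4 in astrocyte-like cells differed little. On the log2 scale, Nuc1 over WT gave -0.10 (-0.15 to -0.05), and the median of the 7571 genes that reached 100 UMIs there was -0.12, so that Aqp4 lay 0.017 above the median gene. The sign of this ratio did not hold: it was 0.074 with TMM scaling, 0.017 with the median ratio set to 0, and 0.41 (0.30 to 0.52) when cells over 10% mitochondrial UMIs were left out, which kept 28 WT and 179 Nuc1 astrocyte-like cells. The median mitochondrial share of these cells was 12.9% in WT and 10.9% in Nuc1. In cluster 6, where only 15 WT cells were found, the log2 ratio of Aqp4 was -0.38 (-0.53 to -0.22).

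Mlc1 was higher in the Nuc1 library in the same cells. The log2 ratio in astrocyte-like cells was 0.82 (0.77 to 0.87), or 1.76-fold, and 2.92% of the 7571 genes had a higher ratio. In the motile-cilia cluster it was 1.09 (0.92 to 1.28), or 2.14-fold. In cluster 8 the interval included 0, at 0.20 (-0.06 to 0.47), and without the 4 Ttr-rich Nuc1 cells, which had 0 UMIs of Mlc1, the levels there were 411 CPM in WT and 578 in Nuc1. The 13 other ways of processing gave 0.75 to 1.39 for the astrocyte-like cells. Counted per UMI of Aqp4 in the same cells, which cancels library size, Mlc1 went from 0.735 (0.704 to 0.767) in WT to 1.39 (1.36 to 1.42) in Nuc1 in the astrocyte-like cells and from 0.648 (0.555 to 0.757) to 1.80 (1.70 to 1.91) in cluster 6. In cluster 8 it went from 0.960 (0.784 to 1.18) to 1.89 (1.55 to 2.30). Part of the rise in clusters 6 and 8 came from Aqp4, which was lower in Nuc1 there. It went from 1004 to 772 CPM in cluster 6 and from 428 to 251 in cluster 8. Among the few UMIs found in collagen-rich cells, the ratio was 0.727 (0.529 to 0.995) in WT and 1.12 (0.925 to 1.35) in Nuc1.

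For Hepacam the log2 ratio in astrocyte-like cells was 0.49 (-0.05 to 1.07), so that at this depth neither no difference nor a 2-fold rise lay outside the interval. Dag1 gave -0.03 (-0.15 to 0.09) in astrocyte-like cells, -0.16 (-0.48 to 0.18) in cluster 6 and -0.07 (-0.15 to 0.01) in the collagen-rich cells. The astrocyte-like value of Dag1 was above 0 under 4 of the 13 other ways of processing. Without cluster 4, the collagen-rich ratio of Dag1 was -0.24 (-0.33 to -0.15). For Kcnj10, 4 UMIs stood against 2.

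**Figure D3:**
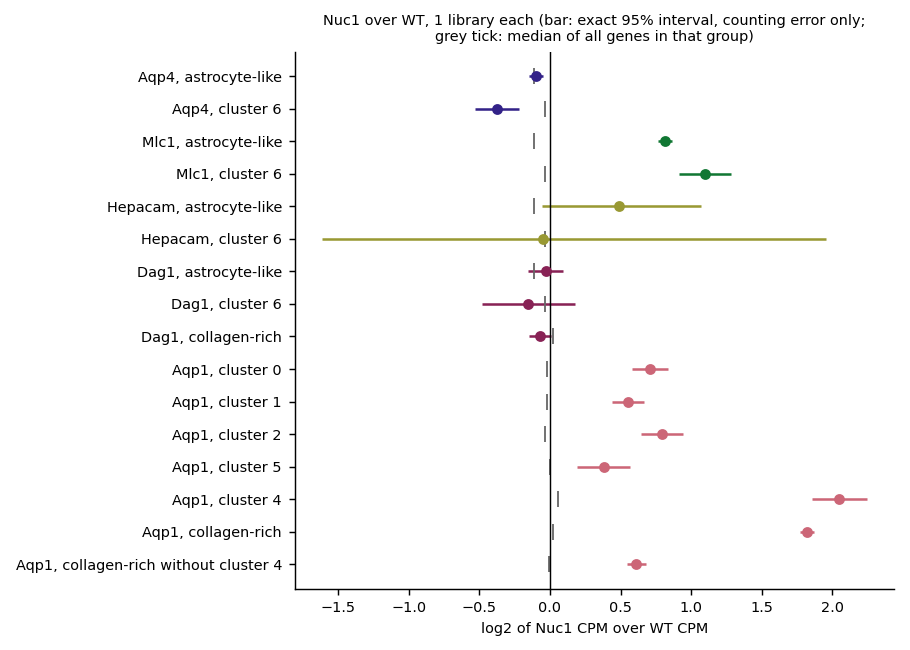
Log2 of Nuc1 CPM over WT CPM for 5 of the genes in the named groups of cells, with exact 95% intervals for counting error and a grey tick at the median of all genes in that group. Mlc1 lies at 0.82 in the astrocyte-like cells beside -0.10 for Aqp4 and -0.03 for Dag1, and Aqp1 lies above 0 in each collagen-rich cluster, from 0.38 in cluster 5 to 2.05 in cluster 4.

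Aqp1 was higher in the Nuc1 library in each collagen-rich cluster. The log2 ratio was 0.71 (0.58 to 0.84) in cluster 0, 0.55 (0.44 to 0.66) in cluster 1, 0.79 (0.64 to 0.94) in cluster 2, 0.38 (0.19 to 0.57) in cluster 5 and 2.05 (1.86 to 2.25) in cluster 4. Over all of them together it was 1.82 (1.77 to 1.87), a 3.53-fold difference, but cluster 4 made up 54 of 1744 WT and 368 of 1265 Nuc1 collagen-rich cells. Without cluster 4, a choice made after the data were seen, the ratio was 0.61 (0.55 to 0.68), or 1.53-fold. In cluster 4 itself, 0.573% of the genes tested had a higher ratio than Aqp1. Inmt and Cyp26b1, named above as leading the cluster, were also lower in its WT cells. Inmt was at 106 CPM in WT and 1030 in Nuc1, and Cyp26b1 at 185 and 706. Whether the WT and Nuc1 cells of cluster 4 are the same kind of cell was not tested.

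In cluster 4, 26 of 54 WT cells and 337 of 368 Nuc1 cells had a UMI of Aqp1. With each cell thinned to 10000 UMIs and shallower cells left out (4 WT and 47 Nuc1), 23 of 50 WT cells and 294 of 321 Nuc1 cells did. The thinned WT cells had a median of 0 UMIs of Aqp1 and a highest value of 30, and 15 of 50 had at least 5. The Nuc1 cells had a median of 11 and a highest value of 64, and 239 of 321 had at least 5. The difference between the libraries in cluster 4 was therefore in the share of cells with Aqp1 as well as in its summed level. At the finer resolution of 1.0 the cluster fell in 2, one led by Vcam1 with 292 CPM of Aqp1 in WT and 1131 in Nuc1, the other led by Apod with 371 and 1685. In both, the Nuc1 value was the higher.

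**Figure D4:**
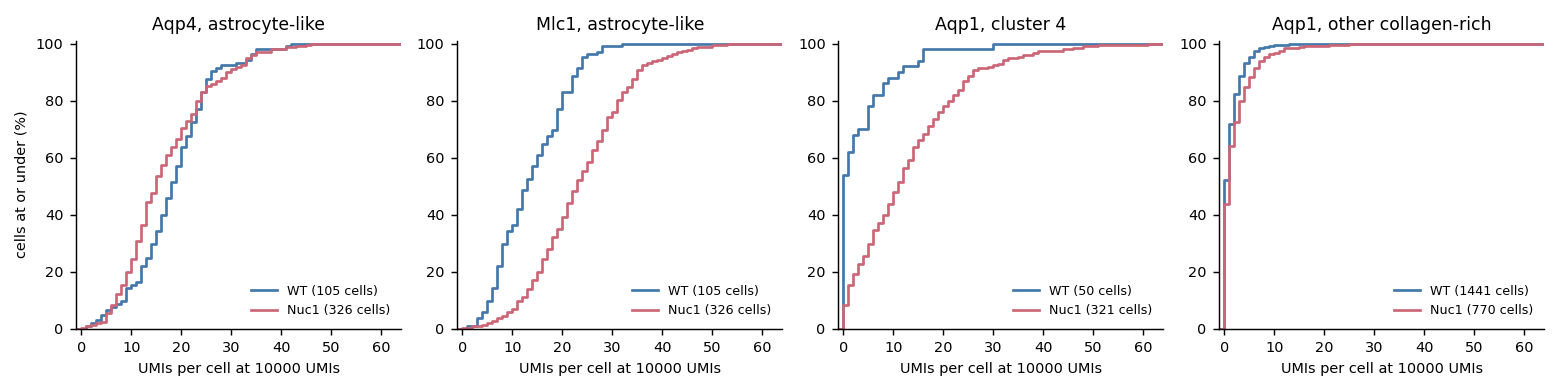
Cumulative share of cells (percent) against the UMIs of the gene in a cell thinned to 10000 UMIs, for WT in blue and Nuc1 in red. In the astrocyte-like cells the curves of Aqp4 lie close, with medians of 18 in WT and 15 in Nuc1, those of Mlc1 lie apart, with medians of 13 and 23, and for Aqp1 in cluster 4 the medians are 0 and 11.

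Within the astrocyte-like cells Aqp4 and Mlc1 were found together. After thinning, all 105 WT cells had both, and in Nuc1 325 of 326 cells had both and 1 had neither. From the 10th to the 90th percentile, Aqp4 ran from 9 to 26 UMIs a cell in WT and from 7 to 29.5 in Nuc1, and Mlc1 from 6 to 23 and from 12 to 35. Dag1 was found with Aqp4 in 97 of 105 and 286 of 326 cells. Hepacam was found with Aqp4 in 10 of 105 and 46 of 326 thinned cells, beside 25 of 107 and 118 of 348 unthinned cells, and in no thinned cell without Aqp4. In collagen-rich cells of the same thinned depth, a UMI of Aqp4 was found in 1.34% of WT and 3.85% of Nuc1 cells. The part of free RNA or mixed droplets in these shares was not tested. Aqp1 was found in 5.71% of WT and 11.4% of Nuc1 thinned astrocyte-like cells, beside 47.8% and 66.7% in thinned collagen-rich cells.

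In counts against all genes, 1 (Aqp1) of the 5 members that reached 100 UMIs in astrocyte-like cells was at least 2-fold higher in Nuc1, beside 1.81% of the 7571 genes, and 0 were at least 2-fold lower, beside 3.91%. Of these Aqp1 UMIs, 68.8% in WT and 91.4% in Nuc1 lay in the cells rich in fibroblast RNA. Without those cells Aqp1 was 2.21 CPM (0.716 to 5.15) in WT and 3.32 (2.11 to 4.99) in Nuc1, with overlapping intervals. In the collagen-rich cells 3 of 4 (Aqp4, Aqp1 and Mlc1) were at least 2-fold higher, beside 4.43% of 10342 genes, and 0 were lower, beside 3.79%. The Aqp4 and Mlc1 sums behind this are the few UMIs described above, and the Nuc1 library held a larger share of astrocyte-like cells. The same 3 were higher in Nuc1 in each collagen-rich cluster, beside 17.7% of the genes. In cluster 4, 1 of the 2 members with 100 UMIs (Aqp1) was at least 2-fold higher, beside 3.9%.

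Of the 12 aquaporin genes in the files, only Aqp4, Aqp1 and Aqp9 had 100 UMIs or more in the kept cells, and the other 9 had between 0 and 92. Aqp9, a channel that also passes glycerol, was read in the astrocyte-like cells at 7.87 CPM in WT and 12.8 in Nuc1. Collagen-rich cells had 0.103 and 0.0881 CPM of it.

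The dystrophin complex, through which Dag1 is tied to the cytoskeleton, was divided by cell group. Of its 14 genes, 12 had enough UMIs, and 6 of these were at least 2-fold higher in the astrocyte-like cells of both libraries and 3 in the collagen-rich cells, beside the 11.0% and 15.6% of all genes given above. The astrocyte-like side included Dmd (dystrophin) at 126 CPM in WT and 104 in Nuc1 against 43.96 and 22.9, the sarcoglycans Sgcb (118 and 117.5 against 25.2 and 30.2) and Sgca (10.4 and 10.0 against 0.0343 and 0.0881), sarcospan, Sspn (165 and 256 against 40.5 and 64.5), and Dag1 itself. Dtnb, Sgcd and Sntb2 lay on the collagen-rich side. Utrn (utrophin), at 38.7 and 29.6 CPM in astrocyte-like and 44.3 and 32.5 in collagen-rich cells, and Sgce were among those that passed 2-fold in neither direction. Between genotypes, 0 of the 10 genes with 100 UMIs in astrocyte-like cells differed 2-fold in either direction, beside 1.81% of all genes higher and 3.91% lower, so that the count is near the background, and their median log2 ratio was -0.02 beside -0.12 over all genes.

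The basement membrane proteins to which dystroglycan binds fell mostly on the other side. Of 9 genes measured, 5 were at least 2-fold higher in the collagen-rich cells of both libraries, beside 15.6% of all genes: the laminin chains Lamb1 (172 CPM in WT and 163 in Nuc1 against 6.80 and 9.67 in astrocyte-like cells), Lama4, Lama2 and Lama1, and Egflam (pikachurin). Only Lama5 was at least 2-fold higher in the astrocyte-like cells, beside 11.0% of all genes, at 64.8 and 63.0 against 2.67 and 2.42 CPM. Lamb2, Lamc1 and Agrn (agrin) passed in neither direction. The median log2 ratio of astrocyte-like over collagen-rich was -2.95 for these 9 genes and 0.75 for the 12 genes of the complex, beside -0.32 over all 10927 genes.

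**Figure D5:**
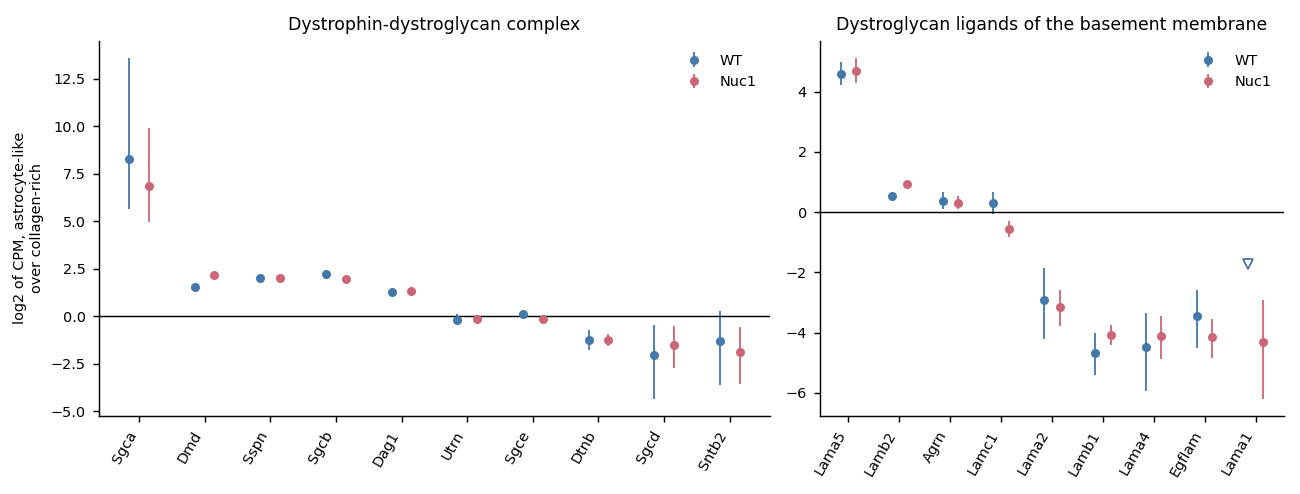
Log2 of the CPM in astrocyte-like cells over that in collagen-rich cells for the genes of the dystrophin complex named in the text (left) and for dystroglycan ligands (right), WT in blue and Nuc1 in red, with exact 95% intervals for counting error (open triangle: upper bound where astrocyte-like cells had 0 UMIs). Dag1 lies at 1.28 in WT and 1.32 in Nuc1, above 0 with Dmd and Sspn, while Lamb1 lies at -4.66 and -4.07.

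The enzymes that put sugars on dystroglycan, without which it does not bind laminin, were read in both groups. Of 15 with enough UMIs, 0 differed 2-fold in both libraries, beside 11.0% of all genes higher in astrocyte-like and 15.6% in collagen-rich cells, and the median log2 ratio was -0.34 beside -0.32 over all genes. Dpm1 and Dpm2, subunits of an enzyme of mannose transfer, had the most UMIs in astrocyte-like cells. Dpm1 had 69.4 CPM there in WT and 94.0 in Nuc1, against 113 and 110.4 in collagen-rich cells.

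Among 11 measured partners of the endfoot and the astrocyte membrane, 7 were at least 2-fold higher in the astrocyte-like cells and 2 in the collagen-rich cells, beside 11.0% and 15.6% of all genes. Besides Mlc1 and Hepacam these included Gprc5b, a receptor that binds Mlc1 and Hepacam, the glutamate transporters Slc1a3 and Slc1a2, and the sodium pump subunit Atp1b2. Gprc5b had 214 CPM in WT and 275 in Nuc1 against 10.5 and 26.9 in the collagen-rich cells. Gja1 (connexin) was 888 and 790 CPM in the astrocyte-like and 1708 and 1376 in the collagen-rich cells. Between genotypes, 1 of 9 was at least 2-fold higher in Nuc1, beside 1.81% of all genes. It was Slc1a2, with 15 UMIs in WT and 102 in Nuc1, a log2 ratio of 1.10 (0.31 to 1.98). In cluster 4, where Aqp1 was highest, the connexin gene Gjb6 had 21.2 CPM in WT and 38.2 in Nuc1, against 1.37 and 6.24 in the other collagen-rich clusters.

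The genes whose levels ran most like Aqp4 over the 20 combinations of cluster and library, by Pearson's r of log2(CPM + 10) among 8010 genes with at least 500 UMIs, were Mlc1 (r = 0.99), S100b (0.96), a calcium-binding protein of astrocytes, Ptprn2 (0.96), Slc14a1 (0.96), a urea transporter, and Acsbg1 (0.96), an enzyme of fatty acid activation. Most like Aqp1 were the transcription factor gene Zic4 (r = 0.95), Pear1 (0.95), Hic1 (0.94), the collagen gene Col18a1 (0.94) and Pgrmc1 (0.94). Between Aqp4 and Aqp1 r was -0.59, and between Aqp4 and Dag1 it was 0.67. Points of 1 library share its depth and its preparation, so these values describe the pattern only.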

How the data were processed

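The authors sequenced 1 droplet 3′ library per genotype, and the labels' processing notes name Cell Ranger 3.1.0, STAR 2.7 and Seurat 3.1.0 and 3.1.1. The deposited values are raw UMI counts per gene and barcode. Here cells were filtered as stated, doublets called by Scrublet (scanpy 1.11.5, expected rate 2%) were left out, and cells were integrated and clustered in Seurat 5.3.0 (R 4.3.3; 2000 variable genes without the 6 members, 30 components, resolution 0.5, seed 1). A cluster was named when at least 3 listed markers of 1 type were among its 10 leading genes. UMIs were summed per group and library, with exact Poisson, Clopper-Pearson and conditional intervals, checked on simulated sums. The WT astrocyte-like cells held 2793930 UMIs and the Nuc1 cells 8892980, so that 3 counts, the limit that 0 allows, make 1.07 and 0.337 CPM. PCR duplicates are removed by UMIs. The members, marker lists and gene lists were chosen with earlier results of these data known. Genes are named if they are members, list members with at least 100 UMIs in a described group, or among the 5 genes most like Aqp4 or Aqp1, and any other was chosen after its values were seen. TMM factors came from edgeR 4.0.16, with no test. Promoters are from RefSeq, for 5 of the 6 genes. A name for cluster 7 and the values of some list members are not reported here.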

Additional observations from a re-analysis of the deposited data

How the results depend on the processing

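No paired analysis was possible because there is a single library for each genotype. Values are log2 ratios. The Nuc1 over WT ratio of Aqp4 in astrocyte-like cells, -0.10 as reported, turned to 0.41 with at most 10% mitochondrial UMIs, 0.074 with TMM scaling and 0.017 with the median ratio set to 0, and moved to -0.037 with no clustering and -0.030 without cells rich in fibroblast RNA. The Aqp4 ratio of astrocyte-like over collagen-rich cells, 8.14 as reported, moved to 7.01 when libraries were merged without integration, 9.22 with no clustering, 8.59 with thinning, 8.33 with TMM and 8.46 with the median set to 0. The Nuc1 over WT ratio of Aqp1 in collagen-rich cells, 1.82, moved to 2.01 with thinning and 0.61 without cluster 4. The Aqp1 ratio of collagen-rich over astrocyte-like cells, 3.56, moved to 3.16 with at most 10% mitochondrial UMIs, 3.04 with no doublets left out, 3.14 with cells of high UMI count left out in place of doublet calls, 5.89 with no clustering, 6.56 without cells rich in fibroblast RNA, 3.37 with TMM, 3.24 with the median set to 0 and 2.699 without cluster 4. Leaving out cluster 4 was added after the data were seen. By construction, thinning lowered the share of cells with a UMI: to 47.8% from 54.6% in WT and to 66.7% from 72.3% in Nuc1 for Aqp1 in collagen-rich cells, and in astrocyte-like cells to 9.52% from 23.4% and 14.1% from 33.9% for Hepacam and to 92.4% from 99.1% and 88.04% from 95.7% for Dag1. For Aqp4 the WT share went from 99.1% to 100%, since shallow cells were left out. Other causes were not tested. For Mlc1, Hepacam, Kcnj10 and Dag1 no ratio changed sign except that of Dag1 for Nuc1 over WT, which was above 0 under 4 of 13 alternatives. With 4 WT and 2 Nuc1 UMIs in the astrocyte-like cells, depth limits Kcnj10, and with 34 and 152 UMIs it limits Hepacam.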
